A study of Mus musculus with 44 samples.

Results

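Rab GTPases are small switch proteins of membrane traffic, and 50 genes of this family were described in dendritic cells of the tumour-draining lymph node. They were the rows of the deposited expression table whose symbol is Rab followed by a number and at most 1 letter, and that had at least 1 CPM (reads of a gene scaled to a common library size) in at least 5 of the 44 libraries. The table lists 55 such rows among 14699 genes, and 11963 genes of the table pass the same filter on low values. Rab-like genes with longer names, such as the Rabl family, are outside this rule.

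A Rab protein is active while it carries GTP and sits on a membrane, and inactive while it carries GDP. Guanine nucleotide exchange factors (GEFs) load the GTP, GTPase-activating proteins (GAPs) end the active state, other factors prenylate the protein and carry it through the cytosol, and effectors read the active form to tether, move or fuse vesicles. Each Rab marks its own compartments, such as the endoplasmic reticulum and Golgi, early, recycling or late endosomes, phagosomes, or secretory and lysosome-related organelles. In dendritic cells these routes take antigen in, deliver it to degradation or to cross-presentation on MHC class I, and bring MHC and Toll-like receptors to the cell surface.

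The cells, gated as CD45+CD11c+MHCII high, came by sorting out of the draining inguinal lymph nodes of female mice aged 8 to 12 weeks, 24 h after a subcutaneous injection at zeitgeber time (ZT, hours after lights on) 3, 9, 15 or 21 in a 12 h light and 12 h dark cycle. Each library came from 1 mouse. In control mice, B16-F10-OVA cells, a mouse melanoma line that expresses ovalbumin, were injected in 20 animals (5 per timepoint, labelled WT) and PBS as a sham in 12 animals (3 per timepoint, labelled PBS). The third group consisted of 12 Bmal1ΔcDC mice with the same tumour cells (3 per timepoint, labelled KO), which carry 2 floxed alleles of Bmal1 (gene symbol Arntl) and a Cre recombinase driven by Clec9a, a promoter active in conventional dendritic cells and their precursors. The design therefore asks how the genes differ between times of injection, between genotypes with tumour cells, and between tumour cells and sham. There was no Bmal1ΔcDC group with sham injection.

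The libraries held 20088012 to 28962671 reads on genes in WT, 29406729 to 55799163 in KO and 28003328 to 49590055 in PBS. In depth WT and KO did not overlap, and WT and PBS hardly did. Depth and group therefore cannot be told apart in comparisons with WT. Arntl was at a median of 14.8 CPM in WT (8.67 to 24.4), 18.001 CPM in KO (11.5 to 38.0) and 21.9 CPM in PBS (12.3 to 34.8), which is no decrease, and the libraries of the third group are therefore named by their label. All 15 genes of a list for conventional dendritic cells had at least 1 CPM in every library, among them Itgax, H2-Ab1, Flt3, Zbtb46, Ccr7 and Irf8. Their levels differed between groups (limma, adjusted p under 0.05). Between WT and PBS 2 were higher and 6 lower in WT (37.9% of all genes differed). Between KO and WT 3 were higher in KO (33.7%), and between KO and PBS 3 were higher and 2 lower in KO (9.73%). With the library index described below as a covariate 2, 8 and 3 were called. Itgae was at medians of 7.45 CPM in WT, 20.3 in KO and 30.6 in PBS. Transcripts of other cells were present too. The sum over 19 T cell genes was 701 to 1248 CPM in WT, 855 to 1760 in KO and 943 to 1944 in PBS, that over 10 macrophage genes was 96.1 to 298, 173 to 1096 and 327 to 544 CPM, respectively, and that over 8 NK cell genes was 60.3 to 107, 88.3 to 265 and 151 to 742 CPM. In such sorted bulk samples fewer cells of a type and less RNA per cell cannot be told apart.

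Most Rab genes were well above the filter. Of the 50 genes, 44 reached 1 CPM in every library, Rab39 and Rab39b did so in 43 and Rab34 in 39. The genes closest to the threshold were Rab40b, with 13 libraries at 1 CPM or more (6 WT, 4 KO, 3 PBS), Rab27b, with 6 (0 WT, 3 KO, 3 PBS), and Rab44, with 5 (0 WT, 3 KO, 2 PBS). Just outside it were Rab36 with 3 libraries and a highest value of 1.51 CPM, Rab25 and Rab33a with 1 library each, and Rab17 and Rab3b with none. Rab27b and Rab44 passed only through KO and PBS libraries, so a difference from WT was built into their membership.

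The highest mean over all libraries was that of Rab8b, a Rab of the path from the trans-Golgi network to the plasma membrane, with 693 CPM. It was followed by Rab7 (376 CPM), which directs late endosomes and phagosomes to lysosomes, and Rab8a (363 CPM), the near relative of Rab8b. CPM were also divided by the length in kb of the longest protein-coding transcript, which adjusts for length alone. On that scale the order was Rab7 (174 CPM per kb), Rab32 (149 CPM per kb) and Rab8b (146 CPM per kb). Rab32 is a Rab of lysosome-related organelles and mitochondria, and was the fourth gene by CPM (321 CPM). Among the genes known from dendritic cell work, Rab14 (315 CPM), Rab10 (262 CPM), Rab11a (245 CPM) and Rab43 (156 CPM) were high, Rab5a (112 CPM) and Rab22a (98.6 CPM) intermediate, and Rab27a (25.9 CPM), Rab35 (21.02 CPM), Rab38 (20.9 CPM), Rab7b (11.8 CPM), Rab20 (6.78 CPM), Rab39 (5.27 CPM) and Rab34 (2.76 CPM) low. In each role group the levels spanned at least a 10-fold range, and each group held genes of over 50 CPM.

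**Figure D1:**
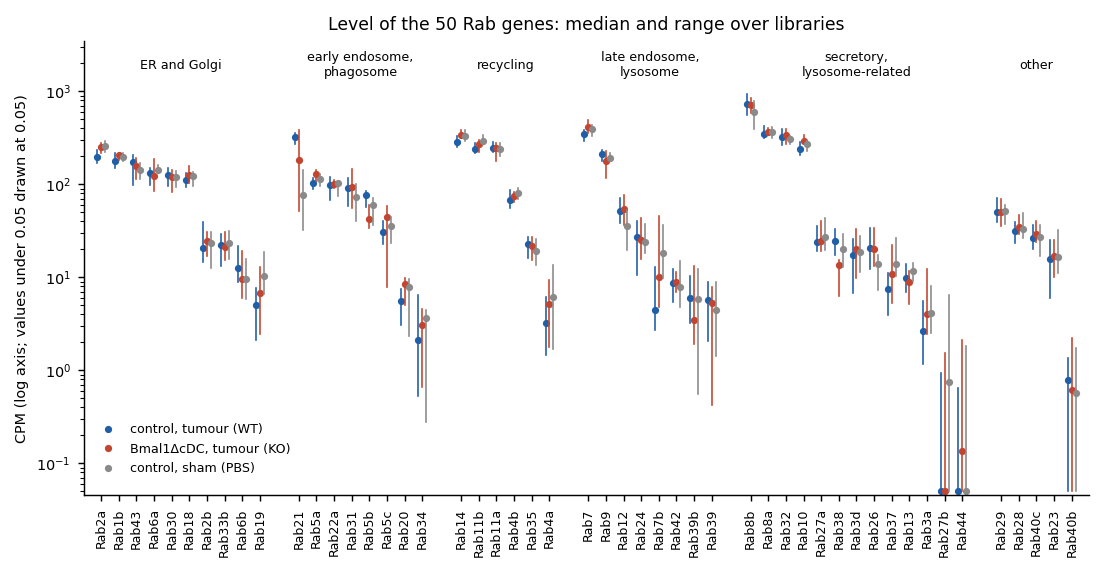
Level of the 50 Rab genes in CPM on a log axis, grouped by the compartment each is known for. Points are medians and lines the range over 20 WT, 12 KO and 12 PBS libraries, and values under 0.05 CPM are drawn at 0.05. Most ranges of the groups overlap, while Rab21 in the early endosome group reaches from 32.5 CPM in a PBS library to 381 CPM in a KO library.

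Variation between mice of the same group and timepoint was compared among genes with a mean of at least 20 CPM. The within-timepoint SD of log2 values had a median over 32 such Rab genes of 0.157 in WT, 0.195 in KO and 0.175 in PBS, beside 0.216, 0.243 and 0.216 over 6244 genes. Rab32 and Rab11b were the steadiest in WT, each with an SD of 0.082, and Rab21 was also steady there (0.113). In KO and PBS, Rab21 had instead SDs of 0.84 and 0.74, at percentile 99.7 in each group among these genes. Rab12, which takes recycling cargo to lysosomes, had SDs of 0.18 in WT, 0.27 in KO and 0.53 in PBS.

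Time of injection was tested first in control mice with tumour cells. Among the 4 timepoints, 3 of the 50 Rab genes differed (limma F test on log2(CPM + 0.5), adjusted p under 0.05), where 5.28% of all genes tested did. These were Rab26, Rab24 and Rab32. With the library index described below as a covariate they were Rab26, Rab32 and Rab29 (adjusted p = 0.0401), and Rab24 was at 0.0608 (4.01% of all genes were called). An unadjusted p under 0.05 was found for 8 Rab genes, where the share over all genes was 23.1%, so the family as a whole did not stand out in time. The other 5 were Rab7b, Rab29, Rab42, Rab3d and Rab37, with adjusted p of 0.0765 to 0.159. Genes of other cells differed over time in WT as well, 6 of 10 macrophage, 4 of 19 T cell and 2 of 8 NK cell genes. Of the 15 dendritic cell genes 0 did. With the covariate these counts were 2, 3, 2 and 1. The part of other cells in the Rab values over time was not tested.

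The start regions of 5 genes with time or group differences, with and without a clock motif, are shown here for orientation. They run from 250 bases before to 50 bases after the annotated start (RefSeq, build GRCm38.p6, minus strand in these 5 genes), and the E-box CACGTG, the motif bound by the CLOCK-BMAL1 dimer, is in capitals. Rab24 (chr13:55321931-55322230) has it at position 3, where 1 is the first transcribed base, Rab21 (chr10:115315542-115315841) at position -30, and Rab32 (chr10:10558158-10558457), Rab5b (chr10:128696219-128696518) and Rab10 (chr12:3309920-3310219) not within this window. The start used for Rab21 lies inside the gene, which extends to 115317419 in the annotation.
Rab24: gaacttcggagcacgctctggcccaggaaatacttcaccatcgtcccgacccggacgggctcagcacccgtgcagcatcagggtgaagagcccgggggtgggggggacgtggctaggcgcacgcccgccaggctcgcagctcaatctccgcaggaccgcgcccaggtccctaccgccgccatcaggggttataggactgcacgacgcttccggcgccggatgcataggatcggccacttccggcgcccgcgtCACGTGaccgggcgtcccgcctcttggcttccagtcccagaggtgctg
Rab21: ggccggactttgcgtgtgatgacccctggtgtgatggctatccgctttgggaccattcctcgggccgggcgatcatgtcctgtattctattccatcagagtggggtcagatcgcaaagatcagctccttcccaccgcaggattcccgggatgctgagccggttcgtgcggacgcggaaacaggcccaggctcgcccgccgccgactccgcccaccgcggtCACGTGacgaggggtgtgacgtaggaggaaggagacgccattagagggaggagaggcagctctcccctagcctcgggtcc
Rab32: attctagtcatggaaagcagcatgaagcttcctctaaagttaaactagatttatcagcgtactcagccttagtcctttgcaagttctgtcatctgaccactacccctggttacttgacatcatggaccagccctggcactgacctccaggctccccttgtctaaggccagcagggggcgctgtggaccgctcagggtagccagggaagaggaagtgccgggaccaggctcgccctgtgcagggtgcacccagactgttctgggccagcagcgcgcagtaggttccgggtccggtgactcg
Rab5b: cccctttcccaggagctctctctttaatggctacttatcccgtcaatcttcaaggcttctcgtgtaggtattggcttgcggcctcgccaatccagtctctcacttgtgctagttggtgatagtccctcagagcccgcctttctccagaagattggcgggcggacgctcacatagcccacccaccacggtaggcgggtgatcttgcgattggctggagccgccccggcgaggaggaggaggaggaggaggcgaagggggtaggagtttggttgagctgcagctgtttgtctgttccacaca
Rab10: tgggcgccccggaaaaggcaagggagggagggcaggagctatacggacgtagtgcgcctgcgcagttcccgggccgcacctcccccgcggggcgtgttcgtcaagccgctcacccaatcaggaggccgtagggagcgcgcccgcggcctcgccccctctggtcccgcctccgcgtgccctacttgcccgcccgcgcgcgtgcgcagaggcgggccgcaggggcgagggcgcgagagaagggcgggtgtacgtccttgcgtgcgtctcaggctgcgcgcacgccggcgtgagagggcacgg

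The table of start regions held 49 such windows for 40 of the 50 Rab genes, and Rab26, Rab38, Rab7b, Rab2a and Rab37 were not among them. The E-box, which reads the same on both strands, was found in 6 of the 49 windows (Rab5a, Rab20, Rab21, Rab23, Rab24 and Rab27a), or 12.2%, beside 7.15% of all 32851 windows of this length. The D-box TTATGTAA, bound by DBP and its relatives, or its reverse complement TTACATAA, was found in that of Rab29 alone among the Rab genes (2.04% of windows, beside 0.94% of all). The windows of the Rab genes had a median GC content of 62.7%, beside 52.7% over all windows. A match describes these letters and does not show that a factor binds there.

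Rab26 (chromosome 17, 24529054 to 24533747, GRCm38.p6), a Rab of secretory granules, had the smallest p over time in WT (adjusted p = 0.00245). At ZT9 the 5 libraries had 25.5, 28.4, 29.2, 30.3 and 33.8 CPM, and at ZT21 20.1, 21.7, 21.8, 23.4 and 24.3 CPM. At ZT15 they had 12.2, 12.8, 12.9, 13.7 and 16.5 CPM, and at ZT3 13.2, 15.6, 15.9, 19.6 and 25.6 CPM. The ranges at ZT9, ZT21 and ZT15 did not overlap each other, while ZT3 was spread over the other times. The means were 17.98 ± 4.82, 29.4 ± 3.02, 13.6 ± 1.70 and 22.3 ± 1.62 CPM at ZT3, ZT9, ZT15 and ZT21 (SD, n = 5 each), with 2 high and 2 low timepoints in alternation. A 24-h cosine has no such shape. Some exons of Rab26 overlap those of Traf7 on the same strand and of AC132367.1 on the other, and reads of an overlap cannot be assigned to either gene.

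Rab24 (chromosome 13, 55319223 to 55321980), which has a role in autophagy, alternated between the same timepoints in WT, at 21.3 ± 7.48 CPM at ZT3, 31.1 ± 6.23 at ZT9, 15.5 ± 6.60 at ZT15 and 30.5 ± 2.00 at ZT21 (SD, n = 5 each, limma adjusted p = 0.0302). The 5 libraries at ZT15 had 10.7, 11.8, 12.6, 15.7 and 26.8 CPM and those at ZT21 27.9, 29.4, 30.5, 31.7 and 33.1 CPM, which did not overlap. At ZT9 the values were 24.2, 28.2, 29.5, 33.0 and 40.7 CPM, and at ZT3 11.6, 15.1, 25.4, 25.8 and 28.7 CPM, so that the ZT9 range overlapped those of the other timepoints. The call was lost in 7 of 20 omissions of a single library, with an adjusted p of up to 0.0829 (without ZT15 replicate 1). Exons of Rab24 and Prelid1 overlap on opposite strands, and without strand their reads cannot be told apart.

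Rab32 (chromosome 10, 10545039 to 10558207) had a smaller relative change with a different shape, high at ZT15 and low at ZT21 (limma adjusted p = 0.0427). The ZT15 libraries had 346, 351, 371, 374 and 390 CPM, all above the other 15 WT libraries. The ZT21 libraries had 263, 271, 289, 295 and 308 CPM, at ZT3 the values were 287, 318, 323, 325 and 338 CPM, and at ZT9 292, 314, 318, 326 and 336 CPM. The call was lost in 14 of 20 omissions, with an adjusted p of up to 0.108 (without ZT15 replicate 1).

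**Figure D2:**
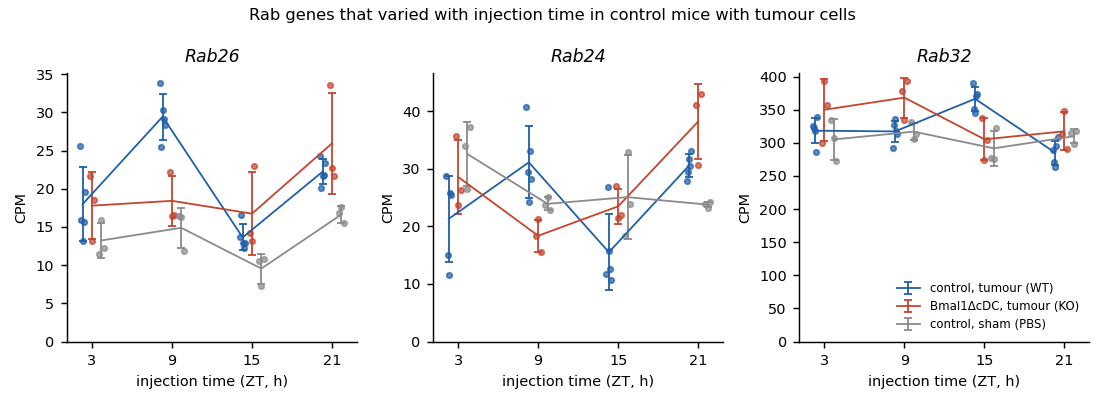
CPM of Rab26, Rab24 and Rab32 against injection time (ZT in hours). Points are libraries, lines join means and bars are SDs (n = 5 per timepoint in WT, 3 in KO and PBS). In WT, Rab26 is high at ZT9 and ZT21, Rab24 low at ZT15 and Rab32 high at ZT15, and in KO and PBS no Rab gene passed the test over time.

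No Rab gene differed among timepoints in KO or in PBS at an adjusted p under 0.05, in comparisons in which 0% of all genes did (limma F test). Unadjusted p under 0.05 were found for 4 Rab genes in KO (10.3% of all genes) and 3 in PBS (7.44% of all genes), led by Rab24, Rab7b and Rab5c in KO and by Rab26, Rab31 and Rab42 in PBS. Rab24 in KO was 28.6 ± 6.35, 18.4 ± 2.80, 23.5 ± 3.05 and 38.2 ± 6.58 CPM at ZT3, ZT9, ZT15 and ZT21 (SD, n = 3 each), highest at ZT21 and lowest at ZT9 (limma adjusted p = 0.286). Rab5c, an early endosome Rab, had its 3 lowest KO libraries at ZT21, with 20.8 ± 11.4 CPM and a lowest library of 7.86 CPM, beside 41.0 ± 6.46 to 53.3 ± 5.51 CPM at ZT3, ZT9 and ZT15 (limma adjusted p = 0.374). Rab26 in PBS was 13.2 ± 2.32, 14.9 ± 2.63, 9.55 ± 1.97 and 16.6 ± 1.07 CPM at ZT3, ZT9, ZT15 and ZT21 (limma adjusted p = 0.616).

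A cosinor of a 24-h period called no Rab gene in WT, KO or PBS, where 0.0251%, 0% and 0% of all genes were called (limma, adjusted p under 0.05). Unadjusted p under 0.05 were found for 5 Rab genes in WT, 2 in KO and 4 in PBS, beside 9.2%, 10.5% and 7.38% of all genes. The smallest p in WT was that of Rab37, a Rab of granule secretion, with an amplitude of 0.30 on the log2 scale and a peak at 22.9 h (limma adjusted p = 0.426), followed by Rab7b (amplitude 0.50, peak at 15.5 h, adjusted p = 0.460) and Rab31 (amplitude 0.25, peak at 8.45 h, adjusted p = 0.461). In KO it was that of Rab24 (amplitude 0.53, peak at 21.96 h, limma adjusted p = 0.251), and in PBS that of Rab33b (amplitude 0.31, peak at 5.17 h, limma adjusted p = 0.663).

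Between ZT9 and ZT21 in WT, the times the study compared in its tumour experiments, no Rab gene passed (0.226% of all genes did), and 6 had an unadjusted p under 0.05 (11.5% of all genes). Rab31, which links the trans-Golgi network with endosomes, was at 103 ± 9.21 CPM at ZT9 and 74.7 ± 18.1 CPM at ZT21 (SD, n = 5 each), with 0.49 as log2 difference (standard error 0.17, limma adjusted p = 0.279). Rab26 differed by 0.39 (standard error 0.14, adjusted p = 0.305) and Rab37 by -0.53 (standard error 0.19, adjusted p = 0.309). The median difference of the 50 Rab genes was 0.003 on the log2 scale, beside 0.040 over all genes. That of the 19 T cell genes tested was -0.61, with 1 of them higher at ZT9. Of these 19 genes 2 were called, both lower at ZT9. The part of T cells in the values of Rab37 was not tested.

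Whether the course in time differed between groups was tested as an interaction. No Rab gene passed for KO against WT (0.0502% of all genes did) or for WT against PBS (0% did), and 6 and 7 had an unadjusted p under 0.05 (18.3% and 11.9% of all genes; limma). The smallest adjusted p for KO against WT were those of Rab5c (0.0775), Rab21 (0.113) and Rab24 (0.123), and for WT against PBS those of Rab24 (0.204), Rab32 (0.237) and Rab42 (0.242). A difference in time course between groups was therefore not shown for Rab24, Rab26 or Rab32.

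Averaged over time, 21 of the 50 Rab genes differed between KO and WT, 16 higher and 5 lower in KO (limma, adjusted p under 0.05), where 33.7% of all genes differed, 23.5% higher and 10.2% lower. Without Rab44 and Rab27b, whose membership rests on KO and PBS libraries, there were 20 of 48 genes, 15 higher and 5 lower. The median difference of the 50 genes was 0.117 on the log2 scale, beside 0.098 over all genes. KO and WT libraries did not overlap in depth, which cannot be told apart from genotype here. The 5 lower genes were Rab5b, Rab38, Rab21, Rab9 and Rab6b. With median-of-ratios scaling, which brought the median of all genes to 0.011, 16 genes were called, 9 higher and 7 lower (29.2% of all genes were called). The 5 lower genes were kept, Rab6a and Rab39b were added to them, and Rab1b, Rab4b, Rab11b, Rab18, Rab28, Rab3a and Rab44 were no longer called higher. A fit with the library index described below as a covariate called 13 genes, 9 higher and 4 lower (29.3% of all genes). There Rab21 (-0.37, limma adjusted p = 0.165) and Rab6b (-0.55, adjusted p = 0.0501) were no longer called lower.

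Rab5b, an early endosome Rab (chromosome 10, 128677170 to 128696284), had the smallest p. It was at 56.6 to 85.6 CPM in WT with a median of 76.3, at 33.8 to 60.3 in KO with a median of 42.0 and at 36.3 to 71.1 in PBS with a median of 59.8. Only the highest KO library, at ZT3, reached into the WT range. The log2 difference of KO from WT was -0.75 (standard error 0.07, limma adjusted p = 5.5e-09), and KO was also lower than PBS (-0.39, standard error 0.10, adjusted p = 0.0173). Its relatives did not move with it. Rab5a was higher in KO than in WT by 0.29 on the log2 scale (standard error 0.05, limma adjusted p = 9.1e-05), with 127.9 and 104.1 CPM as medians, and Rab5c differed by 0.25 (standard error 0.12, adjusted p = 0.132). Rab5a had fractions of a read in 97.7% of the libraries.

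Rab38 (chromosome 7, 88430273 to 88491572), which acts with Rab32 in the making of melanosomes and other lysosome-related organelles, was the only Rab gene whose KO and WT libraries did not overlap (0.903% of all genes did not). It was at 17.5 to 33.1 CPM in WT with a median of 24.7, and at 6.33 to 15.4 in KO with a median of 13.7, of which all but the lowest library, at ZT21, lay between 12.2 and 15.4. PBS was at 13.0 to 29.1 CPM with a median of 19.997, between the other groups and overlapping both. The log2 difference of KO from WT was -0.93 (standard error 0.10, limma adjusted p = 7.74e-08), and that from PBS was -0.62 (standard error 0.14, adjusted p = 0.0135). The difference from WT held at each timepoint, with means of 13.7, 13.5, 13.8 and 11.9 CPM in KO and 26.0, 22.3, 25.3 and 28.3 CPM in WT at ZT3, ZT9, ZT15 and ZT21. Rab38 is transcribed in melanocytes as well, and the injected cells are melanoma cells. The sum of 7 melanoma genes was 1.11 to 3.32 CPM in WT and 2.78 to 5.59 in PBS, with Tyrp1, Dct and Mlana at 0 in all 12 PBS libraries, and 1.45 to 22.1 in KO. The part of melanoma cells in the values of Rab38 was not tested. Rab32 differed by 0.06 between KO and WT (standard error 0.05, adjusted p = 0.395).

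**Figure D3:**
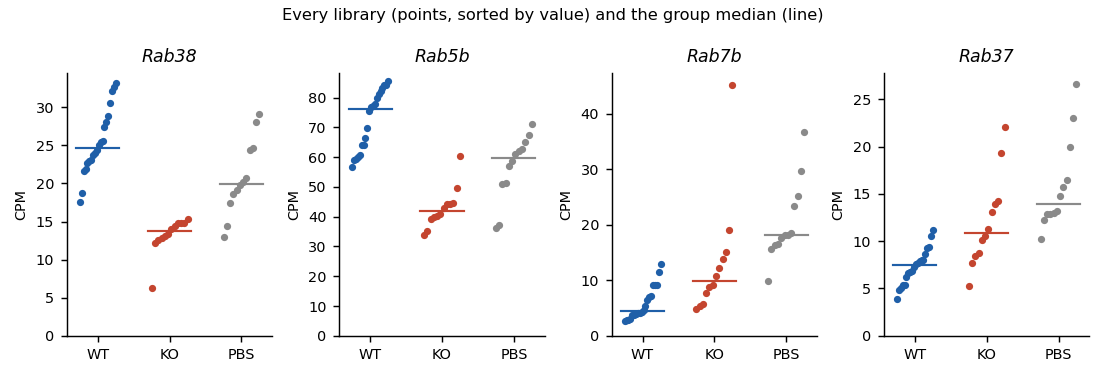
CPM of Rab38, Rab5b, Rab7b and Rab37 in every library of the 3 groups, sorted by value, with the group median as a line (20 WT, 12 KO and 12 PBS libraries). All KO libraries of Rab38 lie below all WT libraries, and Rab7b and Rab37 are lowest in WT.

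Of the higher genes, Rab2a, which works between the endoplasmic reticulum and the Golgi, had the smallest p (chromosome 4, 8535469 to 8607702). It was at 168 to 234 CPM in WT with a median of 196, at 218 to 282 in KO with a median of 254, and at 222 to 292 in PBS with a median of 261. KO and PBS lay together and above most of WT, with log2 differences of 0.354 for KO from WT (standard error 0.05, limma adjusted p = 2.71e-06) and of -0.02 for KO from PBS (standard error 0.06, adjusted p = 0.859). Rab10, an exocytic Rab that also carries Toll-like receptor 4 to the surface, was at 205 to 286 CPM in WT with a median of 238 and at 272 to 341 in KO with a median of 292 (log2 difference 0.31, standard error 0.05, limma adjusted p = 1.48e-05). Rab7 was at 292 to 381 CPM in WT with a median of 346 and at 353 to 489 in KO with a median of 416 (log2 difference 0.29, standard error 0.05, adjusted p = 7.89e-05). These differences were small in size, in genes whose spread between mice was small.

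The role groups did not move as a whole, and their counts stand beside the 33.7% of all genes that were called, 23.5% higher and 10.2% lower, so that none is read as particular to a group. Among 10 Rab genes of the endoplasmic reticulum and Golgi, Rab2a, Rab1b and Rab18 were higher and Rab6b lower in KO than in WT. Among 8 of early endosomes and phagosomes, Rab5a and Rab20 were higher and Rab5b and Rab21 lower. Of the 6 recycling Rab genes, Rab14, Rab11b, Rab4b and Rab4a were higher, and Rab11a (-0.06, standard error 0.05) and Rab35 (-0.03, standard error 0.09) did not pass. With the library index described below as a covariate all 4 lost the call (limma adjusted p of 0.0811 to 0.46) and Rab11a was lower (-0.21, adjusted p = 0.0366). Of the 8 late endosome genes, Rab7 and Rab7b were higher and Rab9, which returns receptors from late endosomes to the Golgi, was lower (-0.26, standard error 0.06, limma adjusted p = 0.00188). Of the 13 secretory genes, Rab10, Rab37 and Rab3a were higher and Rab38 lower, beside Rab44, whose call goes with its membership, and of the 5 others Rab28 was higher. Rab3a and Rab44 were at medians of 2.64 and 0 CPM in WT, so that their differences depend on the pseudocount.

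Several members used in work on cross-presentation did not pass between KO and WT. Rab43, known from cross-presentation by CD8α+ dendritic cells, was at medians of 173 CPM in WT and 157 in KO (log2 difference -0.08, standard error 0.10, limma adjusted p = 0.585). Rab22a, of the recycling compartment that holds MHC class I, was at 98.8 and 100.4 CPM (0.05, standard error 0.06, adjusted p = 0.543), and Rab27a, which acts on the pH of phagosomes, at 23.8 and 24.8 CPM (0.14, standard error 0.09, adjusted p = 0.237). Rab39 differed by -0.30 (standard error 0.21) and Rab34 by 0.23 (standard error 0.21), with wide errors at their low levels. Rab14, of endosomes and phagosomes, did pass, at 283 CPM in WT and 339 in KO (0.26, standard error 0.05, adjusted p = 0.000123), as did Rab20, a Rab of phagosome maturation, at 5.62 and 8.47 CPM (0.52, standard error 0.12, adjusted p = 0.00107), which had fractions of a read in every library. With that covariate neither passed, at 0.16 for Rab14 (standard error 0.07, limma adjusted p = 0.0811) and 0.47 for Rab20 (standard error 0.19, adjusted p = 0.0619).

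**Figure D4:**
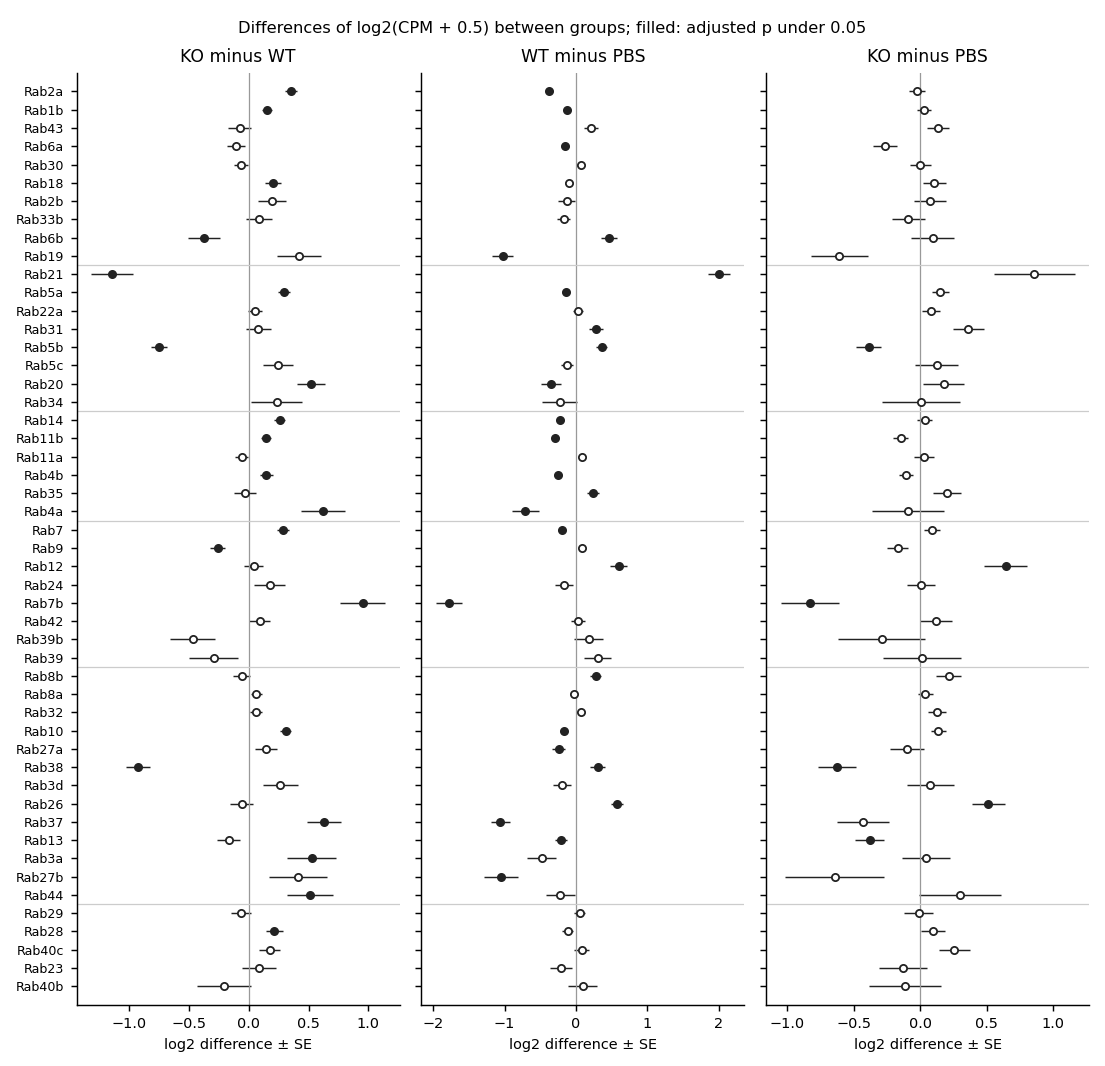
Log2 differences of the 50 Rab genes on the log2(CPM + 0.5) scale, averaged over time, with standard errors, for KO minus WT, WT minus PBS and KO minus PBS. Filled points have an adjusted p under 0.05 (limma), and grey lines separate the role groups. Rab38, Rab5b and Rab21 lie far to the left in KO minus WT, and Rab21 (2.00) and Rab7b (-1.78) at the ends of WT minus PBS.

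Tumour cells and sham differed in 26 of the 50 Rab genes in control mice, 9 higher and 17 lower in WT than in PBS (limma, adjusted p under 0.05), where 37.9% of all genes differed, 13.3% higher and 24.6% lower. Without Rab44 and Rab27b there were 25 of 48 genes, 9 higher and 16 lower. The median difference of the 50 genes was -0.125, beside -0.040 over all genes. With median-of-ratios scaling there were 10 higher and 11 lower among 21 genes, 20 of which were in the first list (37.7% of all genes were called). This comparison and that of KO with WT share the WT libraries, so their differences are not independent. The genes higher in WT were Rab21, Rab26, Rab12, Rab5b, Rab6b, Rab8b, Rab31, Rab38 and Rab35. Those lower in WT were Rab7b, Rab37, Rab19, Rab2a, Rab11b, Rab14, Rab4b, Rab4a, Rab7, Rab10, Rab5a, Rab6a, Rab1b, Rab13, Rab27a and Rab20, beside Rab27b, whose call goes with its membership. With the library index described below as a covariate, 10 of the 26 kept the call, in a fit that called 11.7% of all genes. Rab12 changed sign there (-0.31, limma adjusted p = 0.135).

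Rab7b (chromosome 1, 131688681 to 131715443), which moves cargo from late endosomes to the trans-Golgi network and limits Toll-like receptor signalling in myeloid cells, was at 2.68 to 12.8 CPM in WT with a median of 4.47, and at 9.89 to 36.6 in PBS with a median of 18.2. The groups overlapped only between 9.89 and 12.8 CPM. The log2 difference was -1.78 (standard error 0.18, limma adjusted p = 1.07e-08). KO was between them at 4.77 to 45.1 CPM with a median of 9.95, higher than WT by 0.95 (standard error 0.19, adjusted p = 0.000295) and different from PBS by -0.83 (standard error 0.22, adjusted p = 0.0244). Macrophage genes moved with these values. Of the 10 on the list, 9 were lower in WT than in PBS (37.9% of all genes differed) and 9 higher in KO than in WT (33.7%). Their median log2 differences were -1.31 and 0.77. With the library index described below as a covariate, 5 and 6 of the 10 were called (11.7% and 29.3% of all genes). The KO library with the most Rab7b, ZT15 replicate 2, also had the largest macrophage sum (1096 CPM). Of the defining genes, Mertk was at 0 in 3 WT, 7 KO and 3 PBS libraries. Without that library Rab7b remained higher in KO than in WT by 0.82 (standard error 0.17, adjusted p = 0.000735). Within WT, Rab7b was at 9.51 ± 2.59 CPM at ZT15 and at 4.52 ± 1.25 to 4.98 ± 2.48 at the other times (SD, n = 5 each, limma adjusted p = 0.0765), and the 5 WT libraries at ZT15 had macrophage sums of 193 to 298 CPM, beside 96.1 to 218 in the other 15. The part of other cells in the values of Rab7b was not tested.

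Rab37 and Rab19 were also lower in WT than in PBS. Rab37 (chromosome 11, 115091331 to 115162773), a Rab of granules and of cytokine secretion, was at 3.94 to 11.2 CPM in WT, 5.23 to 22.1 in KO and 10.3 to 26.6 in PBS, with medians of 7.44, 10.9 and 14.0. The log2 difference of WT from PBS was -1.06 (standard error 0.13, limma adjusted p = 2.37e-07). Rab19, a Golgi Rab, was at medians of 4.98, 6.79 and 10.3 CPM, with a log2 difference of WT from PBS of -1.03 (standard error 0.15, adjusted p = 3.01e-06). KO was higher than WT in Rab37 (0.63, standard error 0.14, limma adjusted p = 0.00131), while Rab19 did not pass (0.42, adjusted p = 0.0806), and neither gene passed between KO and PBS (adjusted p = 0.161 and 0.0752). T cell and NK cell genes differed between these groups as well. Of the 19 T cell genes tested 15 were lower and 3 higher in WT than in PBS, and of the 8 NK cell genes 8 were lower, with median log2 differences of -0.51 and -2.51. Between KO and WT, 7 T cell genes were higher and 2 lower in KO, and 6 NK cell genes were higher, with medians of 0.22 and 1.33. The library index described below as a covariate left 10 T cell and 6 NK cell genes called between WT and PBS (11.7% of all genes). Between KO and WT it left 5 T cell and 4 NK cell genes (29.3%). The part of T cells and NK cells in the values of Rab37 and Rab19 was not tested.

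Rab26 was higher in WT, at 12.2 to 33.8 CPM, and in KO, at 13.1 to 33.5, than in PBS, at 7.28 to 17.5. It was called higher than PBS in both groups with tumour cells, by 0.57 in WT (standard error 0.08, limma adjusted p = 3.75e-06) and 0.51 in KO (standard error 0.12, adjusted p = 0.0148), 2 comparisons that share the PBS libraries. With the library index as a covariate the difference of KO from PBS was 0.48 (adjusted p = 0.0898). KO and WT differed by -0.06 (standard error 0.10, adjusted p = 0.679). Rab8b, the highest in CPM, was at a median of 739 CPM in WT, 720 in KO and 601 in PBS, higher in WT than in PBS by 0.28 (standard error 0.08, adjusted p = 0.00606). Rab27b was at a median of 0 CPM in WT with a highest library of 0.925, and reached 1 CPM in 3 of the 12 PBS libraries, levels at which the fitted difference depends on the pseudocount.

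Between KO and PBS, which differ in genotype and in tumour cells, 6 Rab genes differed, where 9.73% of all genes did. Rab26 and Rab12 were higher (5.43% of all genes) and Rab38, Rab5b, Rab7b and Rab13 lower (4.3%) in KO (limma, adjusted p under 0.05). No Rab gene had KO and PBS libraries that did not overlap (0.159% of all genes). None of the 6 calls held with the library index described below as a covariate, and array weights gave 13 calls, in a fit that called 20.8% of all genes. Rab13, of cell junctions, was at medians of 8.92 CPM in KO and 11.6 in PBS (log2 difference -0.38, standard error 0.11, adjusted p = 0.0380), and lost its call in 13 of 24 omissions, with an adjusted p of up to 0.0687 (without KO ZT3 replicate 3).

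Rab21 (chromosome 10, 115289862 to 115317419), which acts in early endocytosis and integrin traffic, had the largest log2 difference of the 50 genes between KO and WT and between WT and PBS, an order that did not hold with the index described next as a covariate. It was at 269 to 354 CPM in the 20 WT libraries, with a median of 321. In PBS it was at 32.5 to 144 CPM with a median of 77.6, and WT and PBS did not overlap (2.15% of all genes did not). The log2 difference was 2.00 (standard error 0.15, limma adjusted p = 6.48e-11). In KO the libraries ran from 51.4 to 381 CPM. The 3 at ZT3 had 51.4, 59.6 and 66.7 CPM, those at ZT9 57.6, 215 and 261, those at ZT15 78.6, 225 and 262, and those at ZT21 154, 353 and 381. KO was lower than WT on average (log2 difference -1.145, standard error 0.175, limma adjusted p = 1.31e-05), although single KO libraries lay within or above the WT range. From PBS it differed by 0.86 (standard error 0.30, limma adjusted p = 0.0767). The model takes a common spread for both groups, whereas the within-timepoint SD of Rab21 was 0.113 in WT, 0.84 in KO and 0.74 in PBS. The standard errors of its differences from WT are therefore understated.

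This spread moved with a property of the libraries. As a measure of it, an index was formed on log2 levels relative to all libraries. It used 6212 genes with a mean of at least 20 CPM, without the Rab genes. Of these, 295 have transcripts that hold a 300-base window with a GC content above 79.0%. The index of a library was the mean of the 295 genes less the median of all 6212 genes. The index was -0.03 to 0.26 in WT, -0.34 to 0.23 in KO and -0.58 to 0.03 in PBS, so that WT and PBS hardly overlapped. Rab6b, Rab21 and Rab12 have the most GC-rich windows among the 50 genes (79.7%, 79.0% and 78.3%). Across libraries, Rab21 rose with the index in KO (r = 0.92, permutation p = 3e-05, Spearman rho = 0.95, permutation p = 4e-05, n = 12) and in PBS (r = 0.86, permutation p = 0.00051, Spearman rho = 0.83, permutation p = 0.0012, n = 12), but not in WT (r = -0.04, permutation p = 0.889, Spearman rho = -0.31, permutation p = 0.188, n = 20). Without the 2 libraries farthest from the median index r was 0.90 in KO, 0.90 in PBS and -0.57 in WT. Rab12 rose with it in PBS (r = 0.93, permutation p = 7e-05, Spearman rho = 0.91, permutation p = 0.00012) and in WT (r = 0.69, permutation p = 0.0005, Spearman rho = 0.69, permutation p = 0.00091), but not in KO (r = 0.20, permutation p = 0.543, Spearman rho = 0.11, permutation p = 0.75), and without the 2 farthest libraries r was 0.90, 0.53 and 0.02. Rab6b, with the most GC-rich window, had no relation that passed in WT (r = 0.06, permutation p = 0.792, Spearman rho = -0.11, permutation p = 0.652), in KO (r = -0.39, permutation p = 0.213, Spearman rho = -0.46, permutation p = 0.133) or in PBS (r = -0.18, permutation p = 0.58, Spearman rho = -0.20, permutation p = 0.527), and without the 2 farthest libraries r was -0.30, -0.68 and -0.29. The permutation p adjusted over these 9 relations, in the order just given, were 0.00027, 0.00115 and 0.889 for Rab21, 0.000315, 0.00115 and 0.745 for Rab12 and 0.889, 0.383 and 0.745 for Rab6b with Pearson's r. With Spearman's rho they were 0.00036, 0.0027 and 0.282, then 0.00054, 0.0027 and 0.75, and then 0.734, 0.239 and 0.677. These 3 genes and this index were chosen after the values had been seen. The permutations did not keep timepoints apart. In KO the index was -0.34 to -0.15 at ZT3 and -0.06 to 0.23 at ZT21. The part of time in the relation of Rab21 with the index was not tested.

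**Figure D5:**
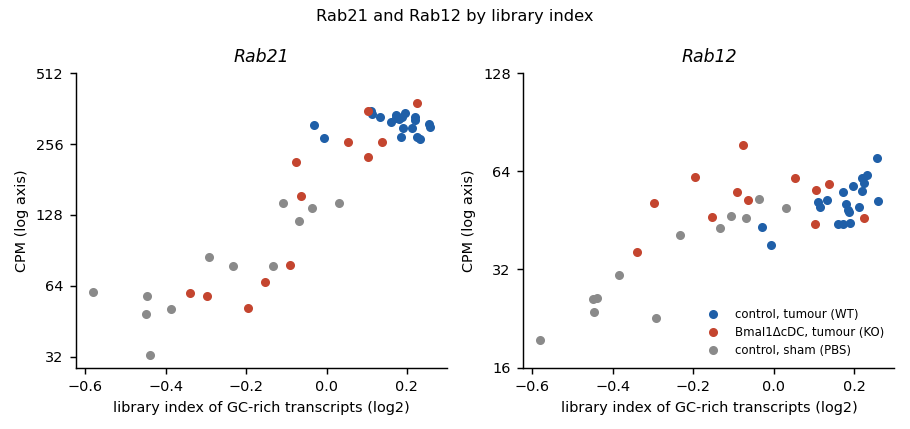
CPM of Rab21 and Rab12 on a log axis against the library index of GC-rich transcripts. The index is their mean log2 level relative to all libraries, less the median of the 6212 genes they were taken from. Points are libraries (20 WT, 12 KO, 12 PBS). Rab21 rises with the index in KO and PBS and stays between 269 and 354 CPM in WT. Rab12 rises with it in PBS and WT, and the PBS library with the lowest index has the least Rab12.

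With the index as a covariate in the model, 13 Rab genes differed between KO and WT, 9 higher and 4 lower, 11 of which were in the first list (29.3% of all genes were called, 22.1% higher and 7.15% lower), and 12 between WT and PBS, 6 higher and 6 lower, 10 of which were in the first list (11.7% of all genes, 1.85% higher and 9.85% lower). None differed between KO and PBS (limma, 2.89% of all genes), where 13 had an unadjusted p under 0.05 (21.5% of all genes). There Rab26 was at 0.48, Rab7b at -0.93, Rab38 at -0.51 and Rab13 at -0.33 (without the covariate 0.51, -0.83, -0.62 and -0.38), whereas Rab12 went from 0.64 to 0.27 and Rab5b from -0.39 to -0.28. Rab38 (-1.13, standard error 0.15, adjusted p = 1.16e-05), Rab5b (-0.59, standard error 0.10, adjusted p = 0.000184), Rab10, Rab2a and Rab7 kept their calls between KO and WT, whereas Rab21 went to -0.37 (standard error 0.20, adjusted p = 0.165). Rab14, Rab11b, Rab4b, Rab4a, Rab20, Rab28, Rab3a, Rab44 and Rab6b also lost the call (adjusted p of 0.0501 to 0.46), in part without a smaller difference. Rab6b went from -0.37 to -0.55, Rab28 from 0.21 to 0.29, Rab3a from 0.525 to 0.69 and Rab20 from 0.52 to 0.47, with larger standard errors, while Rab4a went from 0.62 to 0.32 and Rab14 from 0.26 to 0.16. Rab11a and Rab33b gained a call. Between WT and PBS, Rab7b, Rab37, Rab19, Rab26, Rab2a and Rab21 kept theirs, the last at 0.88 (standard error 0.18, adjusted p = 0.0018). Rab12 went from 0.60 to -0.31 (adjusted p = 0.135), a change of sign. Calls were also lost for Rab4a, Rab4b, Rab5a, Rab6a, Rab7, Rab8b, Rab10, Rab13, Rab14, Rab1b, Rab20, Rab27a, Rab27b, Rab31 and Rab35, and Rab9 and Rab23 gained one. Several of these differences were as large or larger with the covariate, such as those of Rab20 (-0.35 to -0.60), Rab31 (0.28 to 0.39), Rab35 (0.23 to 0.33) and Rab10 (-0.17 to -0.18), with larger standard errors, while Rab1b (-0.125 to -0.03) and Rab13 (-0.21 to -0.08) were smaller. Because the index nearly separates WT from PBS, it and the treatment cannot be told apart in that comparison.

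The proteins that load, unload and read the Rab proteins were listed by role, and their counts stand beside the shares over all genes. A list named Rab cycle holds genes of prenylation and membrane extraction and also others, such as Yipf1, Yipf4 and Rabac1. Over time in WT, 3 of 33 GEF genes, 2 of 38 GAP genes, 3 of 17 Rab cycle genes and 5 of 61 effector genes differed (limma, adjusted p under 0.05, 5.28% of all genes). With the library index as a covariate these counts were 1, 0, 2 and 2 (4.01% of all genes). They included, without the covariate, Rabggtb, a subunit of the enzyme that prenylates Rab proteins (18.3 ± 4.87 CPM, SD, n = 20, limma adjusted p = 0.0148). Among the effectors was Eea1, the early endosome tether that reads Rab5 (42.2 ± 9.82 CPM, adjusted p = 0.0183). Between KO and WT, 11 of 33 GEF genes, 12 of 38 GAP genes, 4 of 17 Rab cycle genes and 15 of 61 effector genes differed (33.7% of all genes), and 11, 12, 4 and 18 with the covariate (29.3%). Rgp1, a subunit of the GEF of Rab6, was at 25.3 ± 6.23 CPM in WT (n = 20) and 11.5 ± 3.92 in KO (n = 12), a log2 difference of -1.14 (standard error 0.12, adjusted p = 7.09e-08), and at 14.4 ± 2.69 in PBS (n = 12). Rin3, a GEF of the Rab5 group, was at 46.9 ± 8.94 CPM in WT and 77.2 ± 31.4 in KO (0.64, standard error 0.09, adjusted p = 1.94e-06). Tbc1d4, a GAP of Rab8, Rab10 and Rab14 and the most abundant of those named, was at 1377 ± 216 CPM in WT and 1738 ± 255 in KO (0.34, standard error 0.08, adjusted p = 0.00258). Between WT and PBS, 12, 13, 6 and 17 genes of the 4 lists differed (37.9% of all genes), and 4, 3, 0 and 2 with the covariate (11.7%). Rab3il1, a GEF of Rab3 and Rab8, was at 6.37 ± 2.48 CPM in WT and 19.4 ± 4.74 in PBS (-1.61, standard error 0.18, adjusted p = 7.24e-08). Sytl3, an effector of Rab27, was at 0.701 ± 0.583 CPM in WT and 3.69 ± 1.51 in PBS (-1.87, standard error 0.23, adjusted p = 3.68e-07), on a scale that understates folds of such low genes. Between KO and PBS, 3, 5, 3 and 1 genes differed (9.73% of all genes), and 1, 3, 2 and 1 with the covariate (2.89%).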

How the data were processed

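Single reads of 50 bases were mapped by the authors with STAR (mm10). Gene counts came from HTSeq 0.9.1, the authors scaled them with edgeR by library size, and the deposited values are CPM. Of the values above 0 in a library, 85.9% to 87.7% were whole multiples of 1 read (tolerance 0.001). Because the remainder could not be turned into reads, no count test was run, and reads on genes were obtained from these steps. CPM were analysed as log2(CPM + 0.5), on which changes of low genes are understated, with limma 3.58.1 in R 4.3.3 and Benjamini–Hochberg adjustment over 11963 genes. The F test over 4 timepoints, a 24-h cosinor and the ZT9–ZT21 contrast used the libraries of 1 group, and averaged differences and interactions those of both groups compared. The 2 experiments of the study are not identified in the labels, so a batch could not be fitted. Relations across libraries used 100000 permutations (two-sided, Python 3.11.15, scipy 1.17.1). Models were tested on simulated data with a common spread per gene, without the differences in spread and library index between the groups.

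The members, role lists and tests were chosen with earlier results of these data known. Genes named in full were, per comparison, those with an adjusted p under 0.05 (at most 6 with the smallest p, otherwise the 3 smallest), the 3 highest in CPM and per kb, those nearest the threshold, 15 genes known from dendritic cells, and, for accessory lists, examples among the 3 smallest p. Coordinates and start regions are from RefSeq (GRCm38.p6), and GC content from GENCODE transcripts. Reads were taken as unstranded. Alternatives were pseudocounts of 1 and 0.1, no filter or a minimum mean of 10 CPM, median-of-ratios scaling, ordinary least squares, an intensity trend, weights per library, a block for replicate numbers and the omission of each library, and, chosen after seeing the data, the index of GC-rich transcripts as a covariate.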

Additional observations from a re-analysis of the deposited data

Results flagged for a closer look

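Within the WT groups of 5 mice, 20 named Rab genes were examined at 4 timepoints (80 groups) for a library far from the other 4 by Dixon's ratio, a test that chance alone passes in about 1 in 20 groups. This was so in 4 of the 80 groups, the number that chance gives. Rab10 was 213 CPM in WT ZT9 replicate 1, below 238 to 243 CPM in the others. Rab2a was 205 CPM in WT ZT9 replicate 5, above 184 to 190 CPM. Rab38 was 32.7 CPM in WT ZT3 replicate 3, above 22.8 to 25.4 CPM, a library that also had the lowest index of GC-rich transcripts among WT (-0.03). Rab7b was 9.15 CPM in WT ZT9 replicate 2, above 2.89 to 4.19 CPM, while the macrophage sum of that library (134 CPM) lay within the range of its group.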

How the results depend on the processing

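A sign is given only by ZT9 against ZT21 and by the group differences averaged over time. Of the genes the naming rule took there, none changed sign under an alternative or omission. Rab12 between WT and PBS, outside that rule, turned to -0.31 with the index of GC-rich transcripts as a covariate. Over the genes of the rule in all comparisons, 428 of 445 values under the alternatives and 1006 of 1044 under omissions of 1 library stayed on their side of the threshold. Of the rest, 11 and 34 lost the call and 6 and 4 gained it. Counts that moved by over 1.5 times, with the share of all genes called at that setting in parentheses, were those over time in WT (3 genes), with 5 of 39 Rab genes at a mean of at least 10 CPM (11.2%), 8 with array weights (20.6%), and 1 to 4 when a library was omitted (1 without ZT9 replicate 4, ZT15 replicate 1, 3, 4 or 5, or ZT21 replicate 3); of ZT9 against ZT21 (0), with 2 under array weights (3.95%); of KO against PBS (6), with 13 under array weights (20.8%) and 0 with the index of GC-rich transcripts as a covariate (2.89%); of KO against WT (21), with 13 with that covariate (29.3%); of WT against PBS (26), with 12 (11.7%); and of the KO interaction with time (0), with 1 under an intensity trend (0.652%), 4 under array weights (8.95%) and 0 to 1 in omissions (1 without WT ZT3 replicate 3, KO ZT9 replicate 1, or KO ZT21 replicate 2 or 3). The cause was not tested, and the fit of array weights stopped before full convergence. Omissions gave 17 to 22 genes for KO against WT, 19 (without PBS ZT15 replicate 2) to 26 for WT against PBS and 5 to 8 for KO against PBS.

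No pairing of the mice by replicate number was seen. The deviations of same-numbered samples correlated at a mean r of -0.015 in WT, -0.001 in KO and -0.029 in PBS, and 3 of 20, 5 of 12 and 1 of 12 samples correlated best with their own number. Whether the numbers go with the experiments of the study was not tested. With the number as a block, 1 Rab gene differed over time in WT (2.85% of all genes), 15 between KO and WT (27.4%), 20 between WT and PBS (30.8%) and 6 between KO and PBS (8.09%). The 11 Rab genes with a mean under 10 CPM have no value under that filter. Rab27b, Rab40b and Rab44 lie at or under 1 CPM in most libraries, and whether depth limits their values was not tested.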
